A study of Danio rerio with 4 samples.

Results

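The nucleolar and ribosome assembly genes npm1a, ncl, fbl, nop56, nop58, dkc1, nop2 and nop10 were followed across 4 poly(A) RNA libraries of whole zebrafish (Danio rerio) embryos. These 8 genes were taken by their symbols, out of 28697 symbols in all, and they hold 35 of the 57596 deposited transcripts. Each library came from 1 pool of 50 embryos injected at the one-cell stage. The control groups carried 8 ng of a control morpholino, and the rbm14 groups carried 4 ng of a morpholino against rbm14a together with 4 ng of one against rbm14b. A morpholino (MO) is an antisense oligomer that blocks the translation or the splicing of its target mRNA, and the labels do not say which of these the rbm14 oligomers do. All groups also carried 300 pg of GFP mRNA as a marker of injection. Embryos were collected at 10 hours post fertilization (hpf), at the close of gastrulation, and at 24 hpf, by which time the first tissues have differentiated. The series asks how Rbm14, an RNA-binding protein that can phase separate, bears on dorsoventral patterning. With 1 library per group there was no replicate check, no test could be made, and each ratio below describes a pair of libraries.

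Ribosomes are assembled in the nucleolus, where RNA polymerase I transcribes ribosomal RNA (rRNA) and assembly factors fold, modify and cut it while ribosomal proteins join. Box C/D small nucleolar ribonucleoproteins guide the methylation of rRNA riboses and box H/ACA particles guide the conversion of uridine to pseudouridine. The early embryo lives on ribosomes laid down in the egg and starts its own production after the zygotic genome becomes active. Nucleolar stress, a fault in this assembly line, is known in vertebrates to stabilise p53.

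Levels are in TPM, a transcript abundance corrected for length and scaled to 1000000 per library, summed over the transcripts of a symbol. TPM keeps no sequencing depth, so the depth is unknown and no counting interval is given. Ratios are log2 ratios of TPM + 0.5 after each pair of libraries was aligned by a trimmed mean of log2 ratios. The subtracted shift was −0.25 for rbm14 over control at 10 hpf, 0.64 at 24 hpf, −0.52 for 24 over 10 hpf in the controls and 0.37 in the rbm14 libraries. Since these shifts are as large as many of the differences below, ratios of the TPM as deposited are given as well. The size rule asked for a 2-fold difference (1 on the log2 scale) and at least 5 TPM in the higher library, and genes with at least 5 TPM in either library are called measured. The targeted genes stood at 170 TPM (rbm14a) and 28.8 TPM (rbm14b) in the 10 hpf control, 254 and 19.3 TPM in the 10 hpf rbm14 library, 70.5 and 21.0 TPM in the 24 hpf control and 82.7 and 28.2 TPM in the 24 hpf rbm14 library. A morpholino that blocks translation need not lower its target's mRNA, so these levels do not check the labels.

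All 8 genes were expressed in every library. The highest was ncl, which encodes nucleolin, an RNA-binding protein that takes part in rRNA transcription and early processing. It stood at 1373 TPM in the 10 hpf control, 1581 TPM in the 10 hpf rbm14 library, 244 TPM in the 24 hpf control and 394 TPM in the 24 hpf rbm14 library. Both 10 hpf libraries lay far above both 24 hpf libraries, and at each stage the rbm14 library had the higher TPM. In the 10 hpf control ncl ranked 102nd among all genes by TPM, and in the 24 hpf control it ranked 394th.

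The nucleolar histone chaperone nucleophosmin is encoded by npm1a. Its summed level was 533 TPM (control) and 716 TPM (rbm14) at 10 hpf, then 131 and 228 TPM at 24 hpf. The order of the libraries was the same as for ncl.

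Among the box C/D genes, fbl encodes fibrillarin, the ribose methyltransferase of these particles, and nop56 and nop58 encode the paired scaffold proteins that hold the guide RNA. The level of fbl was 681 TPM (control) and 772 TPM (rbm14) at 10 hpf, then 183 and 313 TPM at 24 hpf. That of nop56 was 467 and 512 TPM, then 123 and 186 TPM. That of nop58 was 317 and 375 TPM, then 78.6 and 145 TPM. In each of the 3 genes the rbm14 library had the higher TPM at both stages, though after scaling nop56 did not at 24 hpf (−0.04). The level of fbl was above that of nop56, and nop56 above nop58, in every library.

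The box H/ACA genes were less abundant. The pseudouridine synthase gene dkc1, which encodes dyskerin, had 158 TPM (control) and 181 TPM (rbm14) at 10 hpf, then 49.7 and 65.6 TPM at 24 hpf. The gene of its small partner protein, nop10, had 137 and 199 TPM, then 64.6 and 88.2 TPM. The lowest member was nop2, which encodes a cytosine methyltransferase of large subunit rRNA, with 50.5 and 57.2 TPM at 10 hpf, then 17.1 and 33.7 TPM at 24 hpf. The order of the 8 levels was the same in 3 libraries, and in the 10 hpf control dkc1 stood above nop10, where the other 3 had nop10 above dkc1. With no replicates, neighbours this close (158 and 137 TPM) cannot be ranked with any error.

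**Figure D1:**
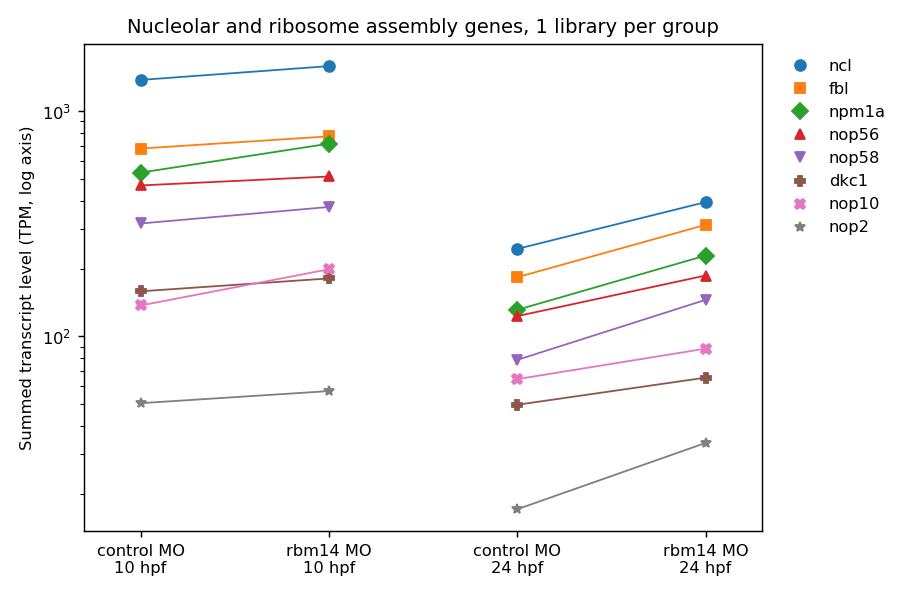
Summed TPM (log axis) of the 8 genes in the 4 libraries, with 1 point per gene and library and lines joining the control and rbm14 MO libraries of a stage. Every gene lies higher at 10 hpf than at 24 hpf for the same morpholino, and every line goes up from control to rbm14 MO, as for ncl from 1373 to 1581 TPM and from 244 to 394 TPM.

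The comparison of stages asks how these mRNAs differ between the end of gastrulation and early organ formation. In the control libraries all 8 genes were lower at 24 than at 10 hpf, with a median log2 ratio of −1.39 (2.61-fold lower), against −0.07 over all 8784 genes measured. The size rule was passed as lower by 7 genes and as higher by none, where 23.1% of all genes measured were lower and 29.6% higher. The largest difference was that of ncl (−1.97), followed by npm1a (−1.50), nop58 (−1.48), nop56 (−1.40), fbl (−1.37), dkc1 (−1.14) and nop2 (−1.02). The gene below the threshold was nop10 (−0.56). On deposited TPM ncl was 5.62-fold and nop10 2.12-fold lower, so that nop10 also passed (−1.08) without rescaling.

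In the rbm14 libraries the 8 genes were likewise lower at 24 than at 10 hpf, with a median of −1.78 (3.42-fold lower) against 0.31 over 9551 genes measured. All 8 passed the size rule as lower, where 22.1% of all genes measured did so and 35.4% passed as higher. The values ran from −2.37 for ncl to −1.12 for nop2, and without rescaling from −2.003 to −0.76, where nop2 no longer passed. Without rescaling the median was −1.41 in the rbm14 libraries (0.66 over all genes measured) and −1.91 in the controls (−0.56 over all genes measured). Which pair of libraries had the larger stage difference in the 8 genes therefore depends on the scaling. The control and rbm14 stage comparisons use different libraries, but between them all 4 that also give the morpholino comparisons, so they are not further evidence on the latter.

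Most partners of these proteins that are not among the 8 also had lower scaled values at 24 hpf. The box H/ACA genes nhp2 (173 and 49.2 TPM in the 10 and 24 hpf controls, log2 ratio −1.28) and gar1 (339 and 108 TPM, −1.12) passed the size rule, as did nolc1, which encodes a snoRNP chaperone (179 and 60.9 TPM, −1.02). The box C/D protein gene snu13b did not (324 and 167 TPM, −0.43). The oocyte-type paralog npm2b had 31.9 TPM at 10 hpf and 0.75 TPM at 24 hpf in the controls, while npm1b had 5.67 and 4.37 TPM, a scaled ratio of 0.13. By list, none of 7 other box C/D genes (median −0.73) and 3 of 4 other box H/ACA genes (−1.07) passed as lower. Of 57 measured small subunit processome genes, 23 passed as lower and none as higher (median −0.83). Of 56 large subunit assembly genes, 14 passed as lower and none as higher (−0.61). The RNA polymerase I list, which also holds polr2 genes such as polr2k, had 3 of 16 lower (−0.55). RNA exosome and rRNA processing genes had 3 of 24 (−0.13). The 79 measured genes of cytosolic ribosomal proteins had the opposite sign, with all 79 past the rule as higher and a median of 2.20. Over the 7 assembly lists with each gene counted once and the 8 genes left out, 48 of 169 measured genes passed as lower (28.4%), beside 23.1% of all genes. Without rescaling it was 97 (57.4%, beside 37.4% of all genes), with 37 in the small subunit and 33 in the large subunit list. With the scale set by genes reaching 20 TPM in each library it was 40 (23.7%, beside 21.2% of all genes).

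In the rbm14 libraries 57 of 171 such genes passed as lower between the stages and 2 as higher (33.3% and 1.17%, median −0.81), beside 22.1% and 35.4% of all genes. As lower passed 21 of 57 small subunit processome genes (median −0.88), 18 of 56 large subunit assembly genes (−0.85) and 5 of 16 RNA polymerase I genes (−0.66). Without rescaling the number lower over all these lists was 30 (17.5%, beside 15.5% of all genes). When the scale was set by genes reaching 20 TPM in each library it was 18 (10.5%, beside 12.7%). Of the 79 ribosomal protein genes, 4 passed as higher and none as lower (median 0.48), against 79 in the controls. The number higher was 25 without rescaling, beside 41.9% of all genes. With the 20 TPM scale it was 52, beside 46.8% of all genes.

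Within a library the balance of assembly factors and ribosomal proteins can be read without any scaling between libraries. The 8 genes summed to 3718 TPM in the 10 hpf control and 4392 TPM in the 10 hpf rbm14 library, and to 891 and 1454 TPM at 24 hpf. That was 6.44% and 6.92% of the summed TPM of the ribosomal protein genes at 10 hpf. At 24 hpf it was 0.501% in the control and 1.28% in the rbm14 library. The ribosomal protein sum was 57710 and 63505 TPM at 10 hpf, then 178085 and 113738 TPM at 24 hpf. At 24 hpf the rbm14 library thus had both more TPM of the 8 genes and less TPM of the ribosomal protein genes than its control. The median log2 ratio of rbm14 over control in deposited TPM was 0.73 for the 8 genes and 0.65 over all genes measured at 24 hpf. The higher TPM of the 8 genes was thus close to that of the typical gene measured. When set by genes reaching 20 TPM in both libraries, the 24 hpf shift was 0.37, below the median of the 8. The percentage of the ribosomal protein sum was chosen after the values had been seen.

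At 10 hpf the morpholino comparison asks which mRNAs differ when gastrulation ends. All 8 genes were higher in the rbm14 library, by a median of 0.45 (1.36-fold), while the median of all 7321 genes measured was 0.05. None passed the size rule in either direction, where 3.57% of all genes measured passed as higher and 5.56% as lower. The values were closely spaced, from 0.38 for nop56 to 0.49 for nop58, apart from npm1a (0.68) and nop10 (0.78). Without rescaling all 8 were still above 0, with a median of 0.20 and a range of 0.13 to 0.53, against −0.19 over all genes measured. The 10 hpf shift depended on level. It was −0.25 when set by genes reaching 1 TPM in both libraries and −0.01 when set by genes reaching 20 TPM. On the 20 TPM scale the ratios of the 8 genes therefore lie close to those without rescaling. Set against genes reaching 20 TPM, as all 8 did at 10 hpf, their excess was thus nearer 0.20 than 0.45. After scaling a median of 0.43 was found for the 79 ribosomal protein genes, of which 78 were above 0 and none passed the rule. Their median was 0.17 without rescaling and 0.19 with the 20 TPM scale.

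After scaling most other assembly genes had the same sign at 10 hpf. Over the same 7 lists, 136 of 169 measured genes had scaled ratios above 0 (median 0.33, beside 0.05 over all genes measured). The median of these 169 was 0.08 without rescaling and 0.09 with the 20 TPM scale. The size rule was passed as higher by 2 of them (1.18%, beside 3.57% of all genes) and as lower by none. Both without rescaling and with the 20 TPM scale, 1 passed as higher and 1 as lower. One of the 2 was mphosph10, which encodes a protein of the U3 particle (76.7 TPM under control MO, 222 TPM under rbm14 MO, 3.43-fold higher after scaling). The other was heatr1, whose product serves both rRNA transcription and the small subunit processome (12.7 and 22.1 TPM, 2.03-fold after scaling). It missed the rule without rescaling (0.78). By list, the median was 0.35 for 57 small subunit processome genes, 0.39 for 56 large subunit assembly genes, 0.43 for 7 other box C/D genes and 0.22 for 4 other box H/ACA genes. It was 0.14 for 16 genes of the RNA polymerase I list and 0.17 for 24 exosome and rRNA processing genes. Without rescaling the median turned below 0 for the other box H/ACA (−0.03), polymerase I (−0.11) and exosome (−0.08) lists, so no direction is given for these 3. In the large subunit list the highest were the subunit joining inhibitor gene eif6 (33.5 and 50.9 TPM, 0.84) and the large subunit assembly gene rrs1 (256 and 367 TPM, 0.77), neither past the rule. In the box C/D list it was the assembly factor gene nufip1 (19.0 and 28.1 TPM, 0.80).

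Other lists also differed between the 10 hpf libraries. Of 7 measured maternal oocyte genes 5 passed as higher (median 1.72), with a list sum of 158 TPM under control MO and 549 TPM under rbm14 MO. Of 13 p53 target genes 4 passed as higher and 1 as lower (median 0.65), and without rescaling 2 and 1. Of 3 measured erythroid genes 2 passed as lower and none as higher (−1.21), and of 3 muscle genes 1 as lower (−0.39). These were hbbe1.1 (5.22 and 0.1 TPM in control and rbm14 libraries), hbae3 (10.5 and 3.54 TPM) and ckmb (6.5 and 2.13 TPM). Each was low and reached 5 TPM in the control library alone, so it could pass only as lower. Of 16 proliferation genes none passed (median 0.27). The 8 genes and the oocyte genes had both been higher at 10 than at 24 hpf in the controls. The ribosomal protein genes, also higher in the 10 hpf rbm14 library (median 0.43), went the other way. All 79 measured were lower at 10 than at 24 hpf in the controls. The part that the developmental age of the pools has in these values was not tested.

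**Figure D2:**
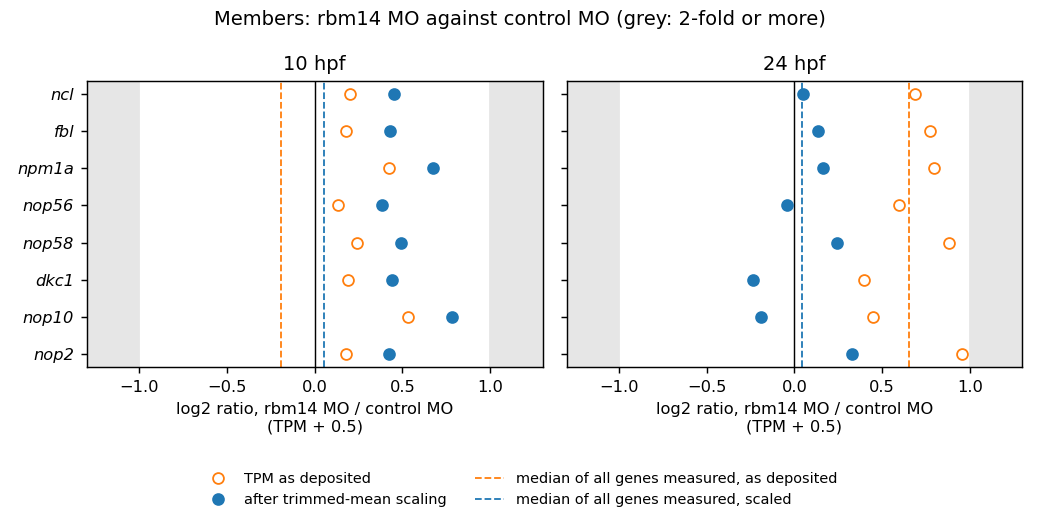
Log2 ratio of rbm14 MO over control MO for each gene at 10 hpf (left) and 24 hpf (right), on TPM as deposited (open orange) and after scaling (filled blue), with dashed lines at the median of all genes measured. At 10 hpf all 8 genes lie right of both dashed medians, and at 24 hpf they scatter about the median of all genes measured under each scaling shown. None lie in the grey 2-fold zone, and the 20 TPM scale is not shown.

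At 24 hpf the same comparison is made in embryos with differentiated tissues. The deposited TPM of all 8 genes were higher in the rbm14 library, from 1.32-fold for dkc1 to 1.97-fold for nop2, but so were those of the typical gene. The median log2 ratio of the 8 was 0.73 without rescaling, against 0.65 over all 9121 genes measured. After scaling the median was 0.09 against 0.04. None passed the size rule under either scaling, where, after scaling, 7.01% of all genes measured passed as higher and 8.85% as lower. After scaling 5 genes lay above 0, namely nop2 (0.33), nop58 (0.24), npm1a (0.16), fbl (0.13) and ncl (0.05). The other 3 lay below 0, with values of −0.04 for nop56, −0.19 for nop10 and −0.24 for dkc1, and were above 0 without rescaling. Hence no direction can be given for these 3 apart from the choice of scaling. When set by genes reaching 20 TPM the shift was 0.37, and the deposited log2 ratios of all 8 lay above it (lowest 0.40, dkc1).

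The median of the ribosomal protein genes was opposite in sign to that of the 8 genes at this stage, scaled or not. Of 79 measured, 67 passed as lower and none as higher (median −1.24, and −0.60 without rescaling). The number lower was 7 without rescaling, beside 2.74% of all genes. With the 20 TPM scale it was 38, beside 5.38% of all genes. Their lowest values were those of rpl22l1 (219 and 68.0 TPM in control and rbm14 libraries, −2.32) and rps9 (10079 and 3526 TPM, −2.15). Proliferation genes had 5 of 16 past the rule as lower and none as higher, with all 16 below 0 after scaling (median −0.77, and −0.14 without rescaling). No proliferation gene passed as lower without rescaling, and 1 did with the 20 TPM scale. Among the 5 were mcm7, a subunit of the replicative helicase (679 and 383 TPM, −1.46), and the mitotic cyclin gene ccnb1 (238 and 163 TPM, −1.18).

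Of 168 further assembly genes measured at 24 hpf, 5 passed the rule as higher and 2 as lower. This is 2.98% and 1.19% of them, beside 7.01% and 8.85% of all genes. Without rescaling 49 passed as higher and none as lower (29.2%, beside 27.0% of all genes). With the 20 TPM scale 11 passed as higher and 1 as lower (6.55% and 0.595%, beside 12.1% and 5.38%). Their median was 0.19, and 0.80 without rescaling. The folds given next are those after scaling, beside TPM as deposited. The higher genes were heatr1 (3.27 and 17.5 TPM, 3.17-fold), the polymerase I initiation factor gene rrn3 (8.21 and 32.7 TPM, 2.48-fold), the U3 particle gene imp3 (13.5 and 46.4 TPM, 2.17-fold), the polymerase I subunit gene polr1b (4.40 and 14.5 TPM, 2.02-fold) and mdn1, whose product strips factors from large subunit precursors (5.90 and 19.2 TPM, 2.02-fold). The lower genes were the helicase gene ddx54 (5.98 and 3.05 TPM, 2.71-fold) and the assembly GTPase gene gtpbp4 (120 and 91.1 TPM, 2.04-fold). Since heatr1 and polr1b reached 5 TPM in the rbm14 library alone, they could pass only as higher. For ddx54, which reached it in the control library alone, only lower was possible. The other box C/D genes had a median of 0.17 (7 measured), the other box H/ACA genes one of 0.04 (4 measured) and the nucleophosmin and nucleolin family list one of 0.17 (5 measured), with none past the rule. In the lists the medians were 0.30 for 56 small subunit processome genes and 0.14 for 56 large subunit assembly genes. They were −0.05 for 16 genes of the RNA polymerase I list and 0.13 for 25 exosome and rRNA processing genes. The gene mphosph10 had 33.5 and 91.8 TPM (0.81), a ratio of the same sign as at 10 hpf but not past the rule after scaling. Without rescaling it passed (1.44). It has 1 deposited transcript, so its level does not depend on a division between transcripts.

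The direct partners of the 8 proteins were near 0 as well at 24 hpf after scaling, apart from snu13b. The levels were 49.2 and 73.5 TPM for nhp2 (−0.06), 108 and 158 TPM for gar1 (−0.09) and 60.9 and 104 TPM for nolc1 (0.13). Without rescaling the ratios were 0.57 for nhp2, 0.55 for gar1 and 0.77 for nolc1, beside a median of 0.65 over all genes measured. The gene snu13b stood at 167 and 141 TPM (−0.88), and it was lower in the rbm14 library without rescaling too (−0.24). Its protein is shared with the spliceosome. The Myc list holds Myc genes, whose products drive ribosome production genes in many cells, and genes of their partner network, some of which oppose Myc. In it 2 of 10 measured passed as lower and none as higher (median −0.41, and 0.22 without rescaling). These were the Myc gene mycla (135 and 88.8 TPM, −1.24) and mxd3, whose product opposes Myc (6.75 and 4.73 TPM, −1.06). Since mxd3 reached 5 TPM in the control library alone, it could pass only as lower. None passed without rescaling (−0.60 and −0.47 for these 2) or with the 20 TPM scale. The most abundant at 10 hpf, mych, stood at 307 and 322 TPM (−0.57).

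The 24 hpf pools differed in other respects that go with these values. Of 14 measured p53 target genes 12 passed as higher and none as lower (median 3.003), with a list sum of 1030 TPM under control MO and 5853 TPM under rbm14 MO. Of 12 muscle genes 8 passed as lower (3 without rescaling) and none as higher, with sums of 16099 and 10093 TPM. Of 9 measured erythroid genes 7 passed as lower and none as higher, with sums of 10987 and 3346 TPM. Their part in the levels of the 8 genes was not tested, and in whole embryos fewer cells of a type and less RNA per cell cannot be told apart.

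The rbm14 to control ratio can be set beside itself at the stages, which share no library. The 24 hpf ratio minus the 10 hpf ratio was below 0 for all 8 genes after scaling (median −0.41, from −0.97 for nop10 to −0.10 for nop2). Without rescaling it was above 0 for 7 of them (median 0.48), with nop10 at −0.09 as the exception. Whether the excess in the rbm14 library was larger at 10 or at 24 hpf therefore depends on the scaling.

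**Figure D3:**
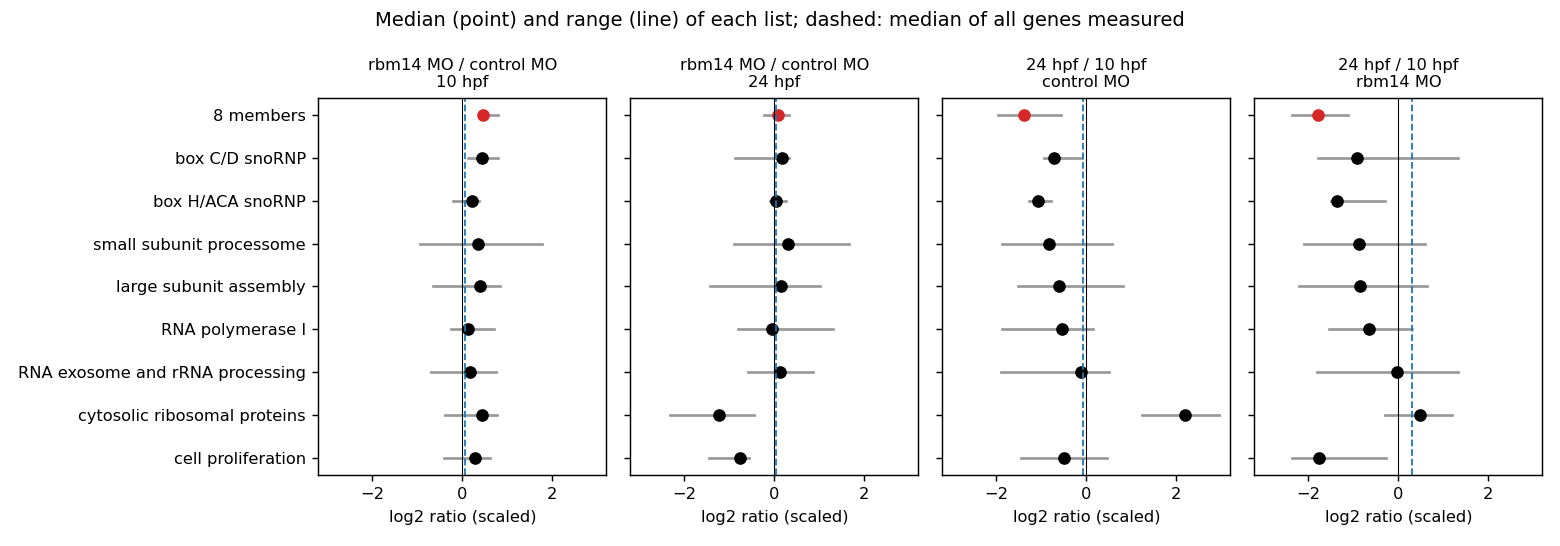
Median (point) and full range (line) of the scaled log2 ratio for the 8 genes (red) and for related lists without them (black) in the 4 comparisons, with the median of all genes measured as a dashed line. The 8 genes and the ribosomal protein genes lie together at 10 hpf (0.45 and 0.43), apart at 24 hpf (0.09 and −1.24), and on opposite sides of 0 between the control stages (−1.39 and 2.20).

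The largest contrast between rbm14 and control libraries within the 8 genes was in the division of npm1a between transcripts. In both control libraries 3 transcripts carried most of it. ENSDART00000100526 and ENSDART00000021240 were each listed at 216 TPM at 10 hpf and 45.2 TPM at 24 hpf, and ENSDART00000158754 at 73.5 and 30.5 TPM. Together they made up 94.9% of npm1a in the 10 hpf control and 92.1% in the 24 hpf control. In both rbm14 libraries all 3 were listed at 0. There ENSDART00000133304 stood at 703 TPM (10 hpf) and 228 TPM (24 hpf), which was 98.1% and 99.8% of the gene. In the controls the same transcript had 24.6 TPM (4.62%) at 10 hpf and 10.3 TPM (7.85%) at 24 hpf. The leading transcripts thus differed between control and rbm14 libraries at both stages, with 1 library per group. The summed level differed by 1.34-fold and 1.74-fold in TPM.

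Since a 0 in a table of TPM can stand for an estimate that failed, no fold was computed for the transcripts at 0. ENSDART00000100526 and ENSDART00000021240 had equal values in every library. Among genes with 2 or more transcripts of at least 5 TPM, values equal to all deposited decimals were found in 7 of 1110 in the 10 hpf control and 6 of 795 in the 24 hpf control. Which parts of npm1a distinguish the 4 transcripts was not analysed here. If only the most abundant transcript were used in place of the sum, the log2 ratio of npm1a would be 5.05 at 10 hpf and 3.80 at 24 hpf, so its ratio rests on summing.

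Such a change of leading transcript was uncommon. Among 1250 genes with several transcripts and at least 20 TPM in every library, the leading transcript differed between rbm14 and control libraries at both stages in 14, or 1.12%. Of the 6 members in that group, npm1a was the single one. The same pair of transcripts changed places at both stages in 6 of the 1250 genes. In 1 of them, npm1a, the transcript leading in the rbm14 libraries had over 90% there and under 10% in the controls. The limits of 90% and 10% were not planned and lie just inside the npm1a shares. That count therefore describes npm1a and is no separate support for its being unusual.

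Transcripts of nop56 were divided more evenly, and 5 of its 8 reached 5% in some library. The leading one, ENSDART00000114524, had 59.0% of the gene in the control and 45.6% in the rbm14 library at 10 hpf, and 66.8% and 48.5% at 24 hpf. Its share was thus lower in the rbm14 library at both stages (−13.4 and −18.3 percentage points), and its level was 276 and 233 TPM, then 82.1 and 90.3 TPM. The transcript ENSDART00000135696 had 3.71% and 8.95% at 10 hpf, and was listed at 0 and at 20.01 TPM (10.7%) at 24 hpf. For ENSDART00000134902 the shares were 10.1% and 14.9%, then 10.7% and 13.1%. For ENSDART00000062687 they were 14.7% and 14.3%, then 10.4% and 18.8%, and for ENSDART00000123335 they were 7.72% and 8.00%, then 9.95% and 5.97%. These last 2 had no common direction at the stages.

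In nop58 the division went with the stage. ENSDART00000169915 made up 51.7% of the gene in the control and 42.3% in the rbm14 library at 10 hpf, and 19.1% and 16.4% at 24 hpf. ENSDART00000158585 made up 48.1% and 57.7%, then 80.9% and 83.6%. Each 10 hpf library had a larger share of the former than each 24 hpf library. The level of ENSDART00000169915 was 164 and 159 TPM at 10 hpf, then 15.04 and 23.8 TPM at 24 hpf, while that of ENSDART00000158585 was 152 and 216 TPM, then 63.6 and 121 TPM. Over the 1250 genes the leading transcript differed between the control stages in 5.36%.

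The transcripts of ncl kept similar shares. ENSDART00000017188 had 62.9% and 63.3% at 10 hpf and 69.0% and 63.7% at 24 hpf, in control and rbm14 libraries in turn. ENSDART00000124698 had 29.0% and 26.7%, then 21.9% and 25.4%, and ENSDART00000147402 had 7.97% and 9.24%, then 8.27% and 10.5%. In fbl, dkc1, nop2 and nop10 a single transcript had at least 94.6% of the gene in every library. These were ENSDART00000076030 (fbl), ENSDART00000017176 (dkc1), ENSDART00000114272 (nop2) and ENSDART00000161015 (nop10), the last the single deposited transcript of its gene. The minor nop2 transcript ENSDART00000129638 reached 5.40% in the 10 hpf rbm14 library. Of the 35 transcripts, 19 reached 5% of their gene in at least 1 library and 5 were listed at 0 in all 4.

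**Figure D4:**
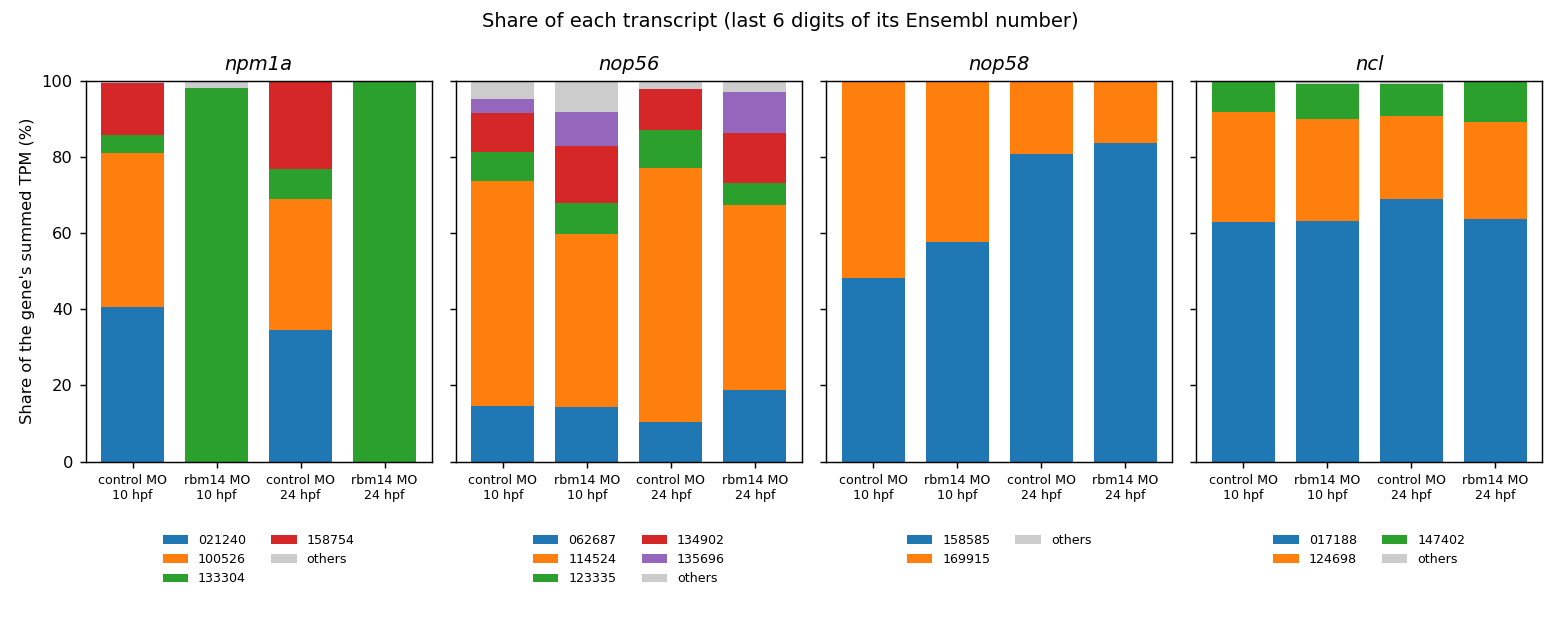
Share of the summed TPM of npm1a, nop56, nop58 and ncl (%, stacked to 100) held by each transcript in the 4 libraries, with transcripts under 5% in every library in grey. In npm1a the transcript ENSDART00000133304 has 4.62% and 7.85% in the controls and 98.1% and 99.8% in the rbm14 MO libraries, while in nop58 the bars differ more between stages than between morpholinos.

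The genes most like the 8 in their course over the 4 libraries were sought by the Euclidean distance between log2(TPM + 0.5) profiles, each centred on its own mean, and the median profile of the 8. Over 3562 other genes with a mean of at least 20 TPM the median distance was 1.48. The nearest were setb, which encodes a histone chaperone (distance 0.07), the splicing factor gene sf3a1 (0.07), the chromatin remodelling gene baz2a (0.08), the cathepsin gene ctss2.1 (0.08) and the stress granule gene g3bp1 (0.09). The levels of setb were 2317 and 2643 TPM at 10 hpf, then 600 and 987 TPM at 24 hpf, in control and rbm14 libraries in turn. Among the 8 themselves fbl was nearest to the median profile (0.06) and ncl (0.63), nop10 (0.58) and nop2 (0.51) were farthest. The difference lay in the depth of the 24 hpf drop for ncl, which was the largest of the 8 in TPM in both pairs of libraries. The distance covers 4 libraries only, with no replicates.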

How the data were processed

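Poly(A) RNA of 4 pools of whole zebrafish embryos was profiled, with 1 library per morpholino and stage. The authors deposited TPM per Ensembl transcript with a gene symbol. No header names the unit, but each library holds fractional values that total 1000000. HTSeq 0.6.1, HISAT2 2.0.1, Trimmomatic 0.30 and the build GRCz10 are named, without roles, per the submitters' processing notes. How transcripts were quantified, with which annotation and strand setting, is not given in the sources used here.

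Transcripts were summed by symbol with Python 3.11.15 and pandas 2.3.3. Each pair of libraries was aligned by a trimmed mean (unweighted) of the log2 ratios of genes reaching 1 TPM in both. At each end 30% of ratios and 5% of levels were trimmed. The calculation was checked on simulated data with few changed genes and the same shift at every level. That check does not cover pairs in which many genes differ or the shift varies with level. A pseudocount of 0.5 TPM was added. The 14 lists held 377 names, of which 349 matched a distinct deposited symbol (335 directly, 4 by letter case and 10 through a RefSeq synonym). The 8 genes are left out of list counts and medians. Named list genes were up to 4 per list by absolute ratio at 24 hpf and 2 at 10 hpf, and the 5 nearest in profile. Values are printed for part of them. The 8 genes and the lists were chosen with earlier results of these data known. The planned motif count in promoters was not made, and sequences were not analysed here.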

Additional observations from a re-analysis of the deposited data

Results flagged for a closer look

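For 3 genes the scaled ratio of rbm14 over control was above 0 at 10 hpf and below 0 at 24 hpf, with 1 library in each group, and the difference between the stages was not tested. It was −0.42 for nop56 (0.38 and −0.04), −0.68 for dkc1 (0.44 and −0.24) and −0.97 for nop10 (0.78 and −0.19). Without rescaling all 3 were above 0 at both stages.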

How the results depend on the processing

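The median of the 8 genes at 24 hpf was 0.73 without rescaling and 0.36 when the scale was set by genes reaching 20 TPM in each library, against 0.09 in the report. The 24 hpf ratio minus the 10 hpf ratio had a median of 0.48 without rescaling and 0.09 with that 20 TPM scale, against −0.41, so its sign depends on the scaling. With the most abundant transcript per gene, the number past the size rule as higher was 1 at 10 hpf and 1 at 24 hpf, npm1a each time, against 0 with summed transcripts. With transcripts of at least 1 TPM in every library alone, the number of the 8 genes whose leading transcript differed at both stages was 0 against 1, because a single npm1a transcript was then left. Between stages the 8 genes stayed below 0 under all 8 alternatives, with 6 to 8 past the rule in the controls and in the rbm14 libraries. Of the 5 genes nearest in profile, 4 were shared with a pseudocount of 5 TPM. At 10 hpf all 8 genes stayed above 0 under the same 8 alternatives. For nop56 with its most abundant transcript this rested on the shift alone. That transcript had 276 TPM in the 10 hpf control and 233 TPM in the 10 hpf rbm14 library. Of 256 single-gene ratios under the alternatives, 239 kept their side of the size rule and, where short of it, moved by under 1.5-fold. Of the exceptions, 8 stayed short of the rule but moved by 1.5-fold or more. They were the 24 hpf ratios of all 8 genes without rescaling. The exceptions past or below the rule were npm1a with its most abundant transcript, and nop2, nop10 and nop58 between stages. Of 1341 list values, 129 moved by 1.5-fold or more as a ratio or as a count. No paired analysis was possible because each group had 1 library and the labels number no replicates. TPM keeps no depth, so what depth limits is unknown.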
